A study of Mus musculus with 12 samples.

Results

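The TGF-β response of p38α∆ MSCs was measured with 5 of the 12 Affymetrix MG-430 PM arrays of the series: 3 arrays of TGF-β-treated p38α∆ MSCs, numbered 1, 2 and 4 in their titles, and 2 arrays of untreated p38α∆ MSCs, numbered 1 and 3. The arrays were taken by their labelled genotype and treatment. The cells were mesenchymal stem cells (MSCs) from the bone marrow of mice (FVB/NJ by the labels, while the study's methods name another background for its experimental mice) that carry floxed alleles of Mapk14, the gene of p38α, and the Ub-Cre-ERT2 transgene, a recombinase that 4-hydroxy tamoxifen (4-OHT) switches on and that the ubiquitin C promoter drives. All cells came from this genotype and had been immortalized by serial passage. To delete p38α, cells received 4-OHT over 2 days and are called p38α∆ MSCs, and WT MSCs had been given vehicle. All groups were kept in 0.5% serum, and the treated groups received 5 ng/ml TGF-β for 20 h. The 7 arrays of WT MSCs, 4 untreated and 3 TGF-β-treated, entered the same fit and were used to test whether the 2 genotypes responded differently. An untreated WT array is titled 4b beside an array 4, and how the 2 samples relate is not given, so the untreated WT group may hold 3 independent samples. Whether the line is 1 clone is not given in the sources used here, nor whether replicate arrays came from separate cultures. The p-values therefore measure the spread between these arrays, which may be technical.

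TGF-β binds a pair of receptor kinases that phosphorylate Smad2 and Smad3, which then enter the nucleus with Smad4 and switch genes on or off. The receptors also activate the kinase TAK1 and, through it, the MAP kinases p38 and JNK, of which JNK phosphorylates c-Jun, a part of the AP-1 transcription factor. In mesenchymal cells TGF-β is known as an inducer of extracellular matrix, of growth factors and of its own inhibitors, and as a brake on adipogenic and BMP-type differentiation.

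Mapk14 itself was looked at first. The log2 values of its most variable probeset were 4.99 and 5.08 in the untreated p38α∆ arrays and 5.16, 5.76 and 5.89 in the TGF-β-treated p38α∆ arrays, and the response was 0.49 (SE 0.21), which did not pass (adjusted p = 0.219 in limma). When all probesets with 1 gene symbol were fitted, its brightest probeset gave 0.37 (limma adjusted p = 0.0259) and another 0.73 (adjusted p = 0.026). The remaining probesets did not pass, and all 6 responses were above 0, so whether Mapk14 passed depends on the probeset. Over the 6 probesets of the gene, the mean of the untreated p38α∆ arrays minus that of the untreated WT arrays was -0.23 to -0.03. Whether any of these probesets reads the floxed exon is not given in the sources used here, and the gene therefore serves as no check of the genotype labels. The largest component of the variation between the 12 arrays (51.2%) set the 4 arrays numbered 1, which include 1 untreated and 1 treated p38α∆ array, apart from the other 8, and the second (26.0%) set treated apart from untreated arrays.

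TGF-β changed 1423 of 17097 genes in p38α∆ MSCs at an adjusted p under 0.05 in limma, of which 581 rose (3.40%) and 842 fell (4.92%). The median size of these changes was 0.70 on the log2 scale, and large changes were about as common in each direction: 161 genes rose (0.942%) and 154 fell (0.901%) by at least 1, and 19 rose and 8 fell by at least 2. The 3 treated arrays all lay above both untreated arrays for 1577 genes (9.22%) and all below for 1947 (11.4%), and this held for 567 of the 581 genes that rose and 809 of the 842 that fell. Each of the 1423 genes also changed in the same direction between the treated and the untreated array numbered 1 and between the treated arrays 2 and 4 and the untreated array 3. The genes were chosen by the contrast of these same 5 arrays, so this agreement is largely built in and is no separate replication. Without the array number in the model 625 genes passed, and in a fit of the 5 arrays alone 55 passed. Without untreated p38α∆ array 1 the count was 736, and without untreated array 3 it was 777. An unadjusted p under 0.05 was reached by 3367 genes.

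**Figure D1:**
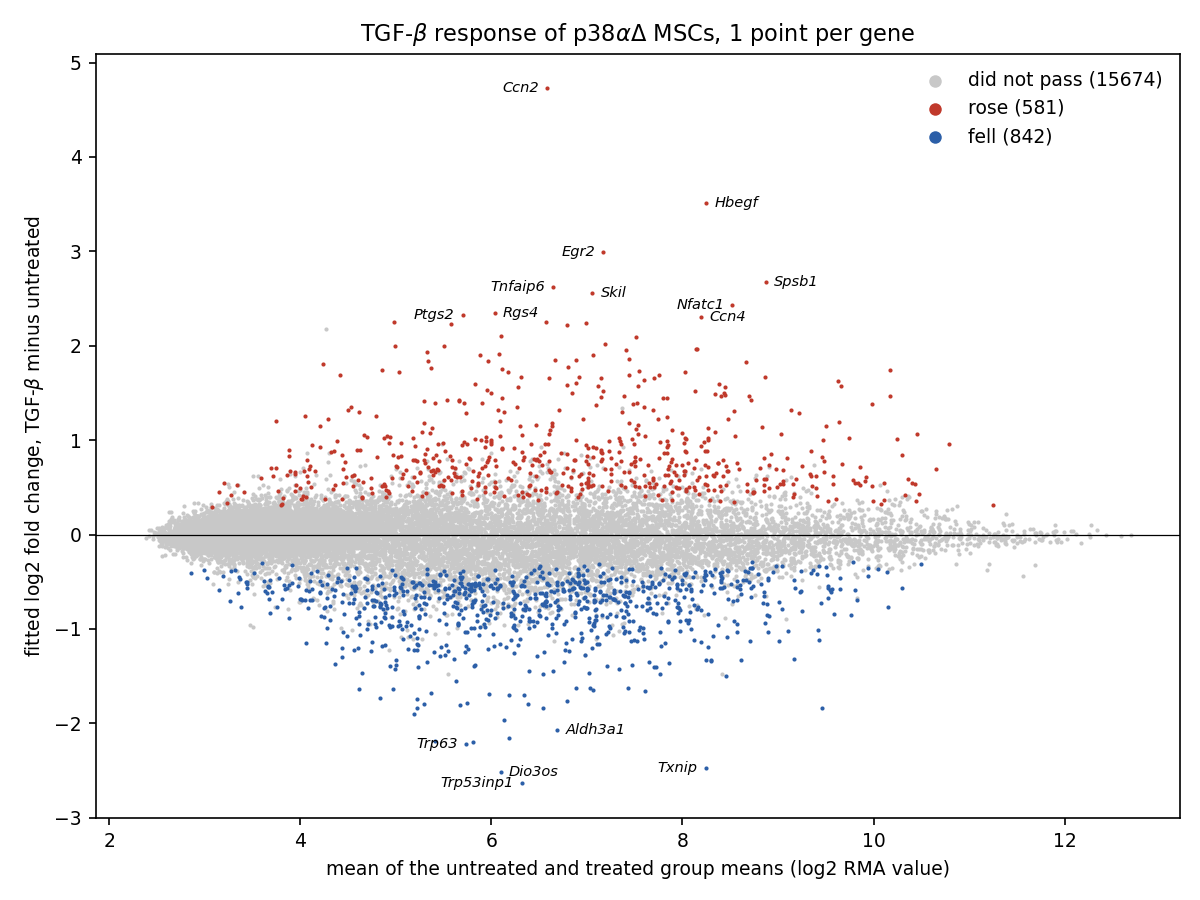
Fitted log2 fold change of each of 17097 genes with TGF-β in p38α∆ MSCs (vertical axis) against the mean of the untreated and the treated group mean (horizontal axis, log2 RMA value), with 581 genes that rose in red, 842 that fell in blue and the others in grey. Ccn2 at 4.73 and Hbegf at 3.51 stand above all other genes, and Trp53inp1, Dio3os and Txnip are the lowest.

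The largest rise was that of Ccn2, followed by Hbegf and Egr2. Ccn2 (CTGF), a secreted matrix protein, was at 4.10 and 4.28 in the untreated and at 8.72, 9.22 and 9.01 in the TGF-β-treated p38α∆ arrays, so the groups were far apart. Hbegf, a membrane-bound ligand of the EGF receptor, went from 6.52 and 6.39 to 9.74, 10.23 and 10.16, a rise of 3.51 on the log2 scale (SE 0.17, limma adjusted p = 6.54e-07). Every treated array lay far above both untreated ones. Egr2, an immediate-early transcription factor, was at 5.14 and 6.08 untreated and at 8.52, 9.05 and 8.62 treated, a rise of 3.00 (SE 0.27, adjusted p = 5.13e-05). Its untreated arrays differed from each other, and the lowest treated array still lay above both.

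The other 12 of the 15 largest rises among genes with a group mean of at least 6 lay between 2.22 and 2.67. Spsb1, a substrate adaptor of a ubiquitin ligase, rose by 2.67 and Skil (SnoN), which holds Smads inactive, by 2.55. Tnfaip6 (TSG-6), which binds hyaluronan, rose by 2.63 and Ptgs2 (COX-2), which makes prostaglandin precursors, by 2.33. The transcription factor Nfatc1 rose by 2.44, Rgs4, which shortens G protein signals, by 2.34, and the matrix protein Ccn4 (WISP1) by 2.30. Fgf2 and Prss46, of the serine protease family, rose by 2.25 each, as did Ldlrad4, a membrane protein that holds back Smad phosphorylation. Cd200, a membrane glycoprotein that restrains myeloid cells, rose by 2.23 and Lgr6, a receptor for R-spondins, by 2.22. Prss46 had the tightest values, 3.79 and 3.95 untreated and 6.09, 6.17 and 6.05 treated, and Skil among the widest, 5.10 and 6.43 untreated and 7.73, 8.71 and 8.59 treated. In each of the 15 genes the lowest treated array lay above the highest untreated array, which the choice of genes required. Over all genes 9.22% had this order. In a fit of the 5 p38α∆ arrays alone Skil, Ptgs2, Ccn4, Fgf2, Ldlrad4 and Cd200 did not pass (adjusted p from 0.0939 to 0.180).

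The largest falls were those of Trp53inp1, Dio3os and Txnip. Trp53inp1, a p53 target that takes part in autophagy, was at 6.75 and 8.39 untreated and at 3.89, 5.83 and 5.52 treated, a fall of -2.63 (SE 0.41, adjusted p = 0.00179 in limma). Arrays numbered 1 were the lowest of both groups for this gene, and the groups did not overlap. Txnip, a thioredoxin-binding protein that limits the entry of glucose into cells, went from 9.61 and 9.34 to 6.86, 7.15 and 7.01 (-2.47, SE 0.16, adjusted p = 3.36e-06). Trp63, a transcription factor of the p53 family, went from 6.88 and 6.89 to 4.64, 4.57 and 4.55 (-2.22, SE 0.24, adjusted p = 0.000194). For both genes the arrays within a group lay close together. Another probeset of Trp63 gave -0.84, while those at -0.21 and 0.12 did not pass, so its fall depends on the probeset.

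The other 12 falls lay between -2.51 and -1.80. They were those of Dio3os (-2.51), an antisense transcript of the Dio3 locus, Crebrf (-2.20), a regulator of the CREB3 stress factor, Rassf2 (-2.19), of the Ras association family, Klhl24 (-2.15), a kelch-type ubiquitin ligase adaptor, and Aldh3a1 (-2.08), which oxidizes aldehydes. Eya1 (-1.96), a transcriptional co-activator, Adamts9 (-1.90), which cleaves proteoglycans, Gulp1 (-1.84), an adaptor of engulfment, H1f2 (-1.84), a linker histone, Dtna (-1.83), of the dystrophin complex, Lpin1 (-1.80), a phosphatidate phosphatase, and Ankrd44 (-1.80), a subunit of a phosphatase, followed. The treated arrays lay below the untreated ones for each of the 15, which the choice of genes required. Over all genes 11.4% had this order. Dtna depends on the probeset: its brightest probeset gave 0.02 (adjusted p = 0.978). For Crebrf, Adamts9, Gulp1, Lpin1 and Ankrd44 at least 1 further probeset did not pass, that of Lpin1 at -0.60. Trp53inp1, Crebrf, Klhl24, Gulp1, H1f2 and Ankrd44 did not pass without the array number in the model (adjusted p from 0.0722 to 0.245), Crebrf and Gulp1 not without untreated array 3 (adjusted p of 0.116 and 0.0906), Gulp1 not without treated array 1 (adjusted p = 0.0544), and Lpin1 not without the arrays numbered 1 (adjusted p = 0.0563). In a fit of the 5 p38α∆ arrays alone Eya1, Adamts9, Dtna and Lpin1 did not pass either (adjusted p from 0.0819 to 0.192), nor did the 6 genes lost without the array number (0.185 to 0.570).

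**Figure D2:**
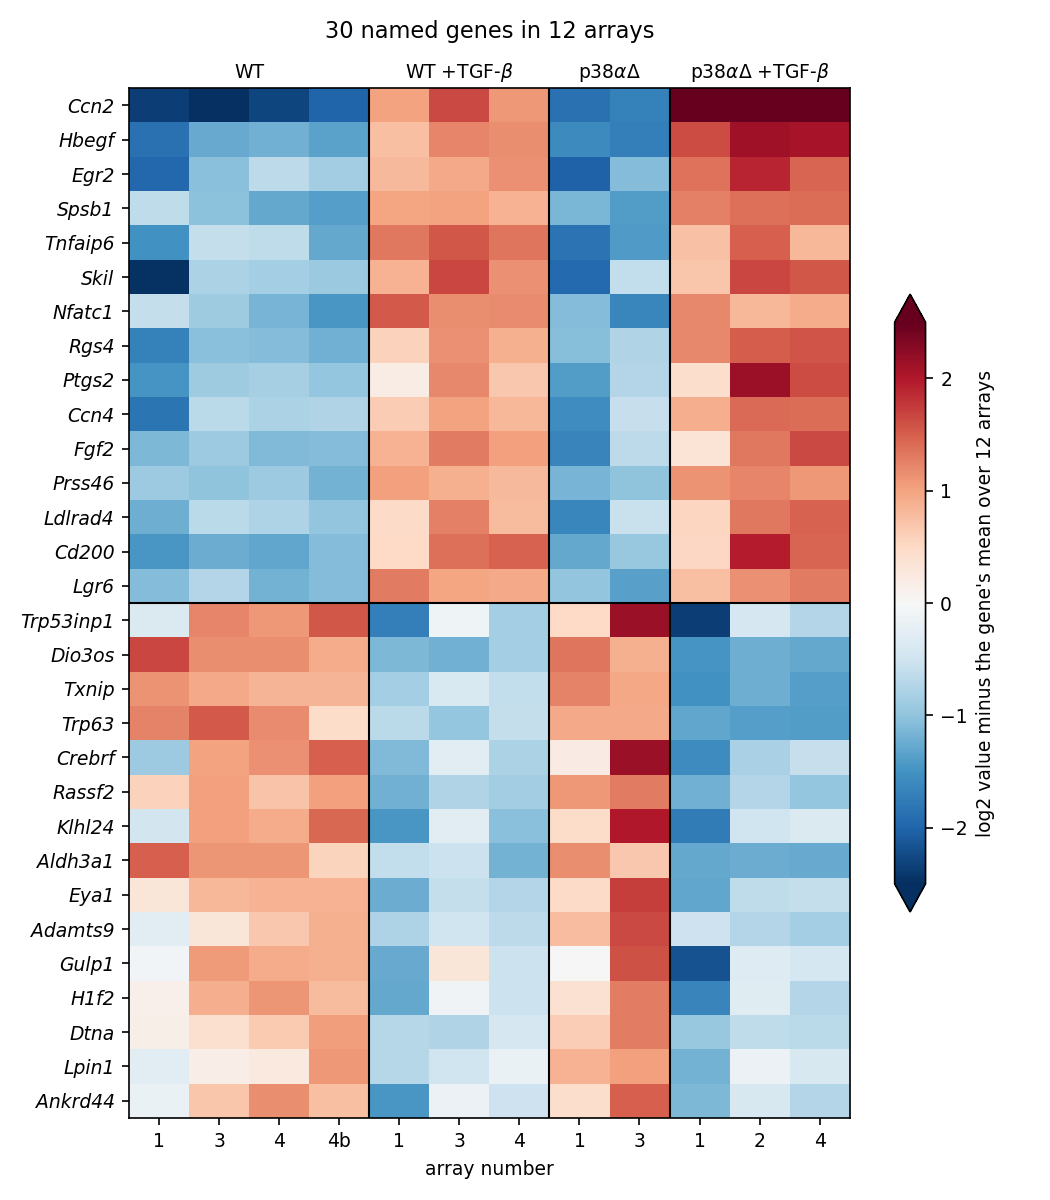
Log2 value minus the gene's mean over the 12 arrays (color) for the 15 largest rises (upper rows) and the 15 largest falls (lower rows) of p38α∆ MSCs, with 1 column per array, labelled by its number and grouped by genotype and treatment. The 3 treated p38α∆ columns are all above the untreated ones in the 15 rises and all below in the 15 falls, which the choice of genes required, and the fitted WT change has the same sign in all 30.

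The promoters of 3 of these genes are shown because of the binding motifs they hold, and they were picked after the matches were seen: Tnfaip6 holds 3 of the 4 motifs searched, Ptgs2 the most matches to 1 motif among the rises, and Rassf2, a fall, 2 of the motifs. Each window runs from 250 bases before to 50 after the 5′-most start of the gene in RefSeq (GRCm38.p6) and is printed 5′ to 3′ on the gene's strand, with matches on either strand in capitals. The motifs searched were CAGAC for the Smads. The AP-1 motif was TGANTCA. The TEAD motif was GGAATG. The motif of SRF was the CArG box.
Tnfaip6: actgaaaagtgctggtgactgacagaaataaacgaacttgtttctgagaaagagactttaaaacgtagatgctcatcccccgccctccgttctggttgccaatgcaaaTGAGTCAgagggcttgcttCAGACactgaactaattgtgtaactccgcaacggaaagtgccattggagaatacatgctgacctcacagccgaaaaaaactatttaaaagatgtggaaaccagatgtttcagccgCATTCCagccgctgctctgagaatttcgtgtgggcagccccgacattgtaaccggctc
Ptgs2: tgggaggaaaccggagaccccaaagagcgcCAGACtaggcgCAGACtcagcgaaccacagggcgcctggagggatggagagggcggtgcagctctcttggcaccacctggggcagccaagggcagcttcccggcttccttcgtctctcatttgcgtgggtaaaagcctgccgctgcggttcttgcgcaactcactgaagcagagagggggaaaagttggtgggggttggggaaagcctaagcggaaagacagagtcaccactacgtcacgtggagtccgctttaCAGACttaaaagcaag
Rassf2: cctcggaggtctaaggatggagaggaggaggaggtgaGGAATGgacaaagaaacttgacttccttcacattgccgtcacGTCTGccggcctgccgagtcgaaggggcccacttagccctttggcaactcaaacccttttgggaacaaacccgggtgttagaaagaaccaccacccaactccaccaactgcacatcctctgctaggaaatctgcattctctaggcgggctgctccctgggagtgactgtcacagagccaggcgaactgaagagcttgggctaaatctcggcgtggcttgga
The Tnfaip6 window (chr2:52037863-52038162, plus strand) holds 1 match each to the Smad, AP-1 and TEAD motifs. The Ptgs2 window (chr1:150099781-150100080, plus strand) holds the Smad motif 3 times, and that of Rassf2 (chr2:132030275-132030574, minus strand) holds 1 match each to the Smad and TEAD motifs. The motifs do not contain one another. The Smad motif was in 51.3% of the windows of genes that rose (233 of 454), 45.4% of genes that fell (312 of 688) and 49.1% of all tested genes with a window (6674 of 13605). The AP-1 motif was in 6.39%, 4.36% and 6.39%, the TEAD motif in 12.3%, 10.5% and 13.1%, and the CArG box in 1.32%, 1.31% and 1.44%. Of the 40 genes named by their size of change or by the difference from WT, 27 had a window, and no window was found for Ccn2, Hbegf and Skil, among others. A match is a string of letters and not a measured binding site.

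The counts in gene lists that follow are to be set against 3.40% of all genes that rose and 4.92% that fell. Of 23 measured Smads and feedback genes 7 rose and 1 fell. Smad7, the inhibitory Smad, was at 5.90 and 6.19 in the untreated and at 7.67, 8.02 and 7.68 in the treated p38α∆ arrays, a rise of 1.67 (SE 0.12, adjusted p = 1.02e-05 in limma). Skil (2.55), Ldlrad4 (2.25), Ski (0.74), a relative of Skil, Smurf1 (0.59), a ubiquitin ligase for receptors and Smads, Vasn (0.56, with a second probeset that did not pass), which binds TGF-β, and Bambi (0.50), a receptor without a kinase, rose too. All 7 are known to dampen TGF-β signals. Smad3, which carries the signal to the nucleus, went the other way, from 7.67 and 7.24 to 6.45, 6.43 and 6.43 (-1.10, SE 0.17, adjusted p = 0.00183), and its other 2 probesets fell by 1.07 and 0.86. Its fall did not pass without the 4 arrays numbered 1. Smad2 (0.24) and Smad4 (-0.10) did not pass.

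Among 19 ligands and proteins of ligand latency, 3 rose and none fell. Tgfb3 went from 7.98 and 7.96 to 9.45, 9.45 and 9.39, a rise of 1.46 (SE 0.08, adjusted p = 2.62e-06 in limma) with hardly any spread within a group. Fstl3 (2.09) and Fst (1.25), soluble traps for activins, rose as well. Tgfb1 (0.74, adjusted p = 0.0629) and Tgfb2 (-0.68, adjusted p = 0.0539) did not pass. Of 17 receptors, Acvr1, a type I receptor for BMPs and activins, rose by 0.63, while Tgfbr3 (betaglycan), a co-receptor that presents the ligand, fell by 0.85 and Tgfbr2, the ligand-binding receptor kinase, by 0.53. Tgfbr2 was close to the threshold (adjusted p = 0.0494). The list had 1 fall in place of 2 without the array number in the model, without untreated array 1 or any of treated arrays 1, 2 and 4, and without WT array 3 or any treated WT array, and 3 without WT array 1.

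In the BMP branch 3 genes fell and none rose. Id3, an inhibitor of basic helix-loop-helix factors and a BMP target, was at 8.93 and 8.97 untreated and at 7.65, 7.78 and 7.52 treated (-1.33, SE 0.09, adjusted p = 6.93e-06 in limma). Id2 (-1.64) and the ligand Bmp4 (-1.66) fell too, and the other 19 of 22 genes of this list, Id1 among them (0.07), did not pass. Id2 is measured by 3 probesets, which gave -1.64, -0.62 and -0.13, so the size of its fall depends on the probeset. Without WT array 1, 2 genes of this list rose.

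Early response genes were among the lists with the largest share of rises: 13 of 29 rose (44.8%) and none fell, against 3.40% and 4.92% of all genes, and the median of the list was 0.38 against 0.00 over all genes. Jun, a core part of AP-1, was at 6.39 and 6.74 in the untreated and at 8.06, 8.48 and 8.38 in the treated p38α∆ arrays, a rise of 1.69 (SE 0.13, adjusted p = 1.09e-05 in limma). Fos, its partner, went from 4.49 and 5.57 to 6.19, 6.70 and 6.31 (1.39, SE 0.22, adjusted p = 0.00189), and Maff, a small Maf factor, from 5.83 and 5.96 to 7.67, 7.91 and 7.57 (1.78, SE 0.11, adjusted p = 2.62e-06). In these 3 genes every treated array lay above both untreated ones, most narrowly in Fos.

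Among the other Fos and Jun genes, Fosl1 (1.50), Fosb (1.39), Junb (1.35) and Jund (0.52) rose, whereas Fosl2 (-0.11) did not pass. Egr1, an immediate-early factor, went from 9.67 and 10.11 to 10.98, 11.10 and 11.00 (1.06, adjusted p = 0.00437 in limma), alongside Egr2 (3.00). Klf10 (1.08), a factor first known as TGF-β inducible, Csrnp1 (0.98), Ier2 (0.71) and Srf (0.71), which drives immediate-early promoters, completed the list. The number of rises in the list was 11 without the array number in the model and 9 to 14 when 1 array was left out.

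In a list of MAP kinase phosphatases and other regulators of MAP kinase signals, 8 of 20 genes rose and none fell. Gadd45g and Gadd45b, activators of the kinase MTK1 upstream of p38 and JNK, rose by 1.96 and 1.83. Errfi1 (Mig6), an inhibitor of the EGF receptor, went from 8.78 and 8.77 to 10.20, 10.72 and 10.54 (1.63, SE 0.13, adjusted p = 2.22e-05 in limma), and Dusp6, a phosphatase of ERK, rose by 1.61. Spry4 (0.97), Dusp14 (0.91), Dusp16 (0.84), a phosphatase of JNK, and Spred2 (0.57) made up the rest, while Dusp1 (0.39) did not pass. The list had 5 rises without the array number in the model and 4 without untreated array 1.

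Of 23 kinases and substrates of the p38 and JNK pathways 4 rose and 3 fell. Map2k6 (MKK6), an activator of p38, went from 6.44 and 6.87 to 5.22, 6.16 and 5.59 (-1.19, SE 0.23, adjusted p = 0.00636 in limma), and Mknk1 (-0.98) and Rps6ka5 (MSK1, -0.62), kinases that p38 activates, fell too. Mapkapk2 (MK2, 0.73), the main kinase downstream of p38, Map3k4 (0.52), Hspb8 (0.50) and Mapkapk5 (0.45) rose. The JNK genes Mapk8 (0.04) and Mapk9 (-0.09) did not pass. Without either untreated array, 2 of these genes rose and 1 fell.

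**Figure D3:**
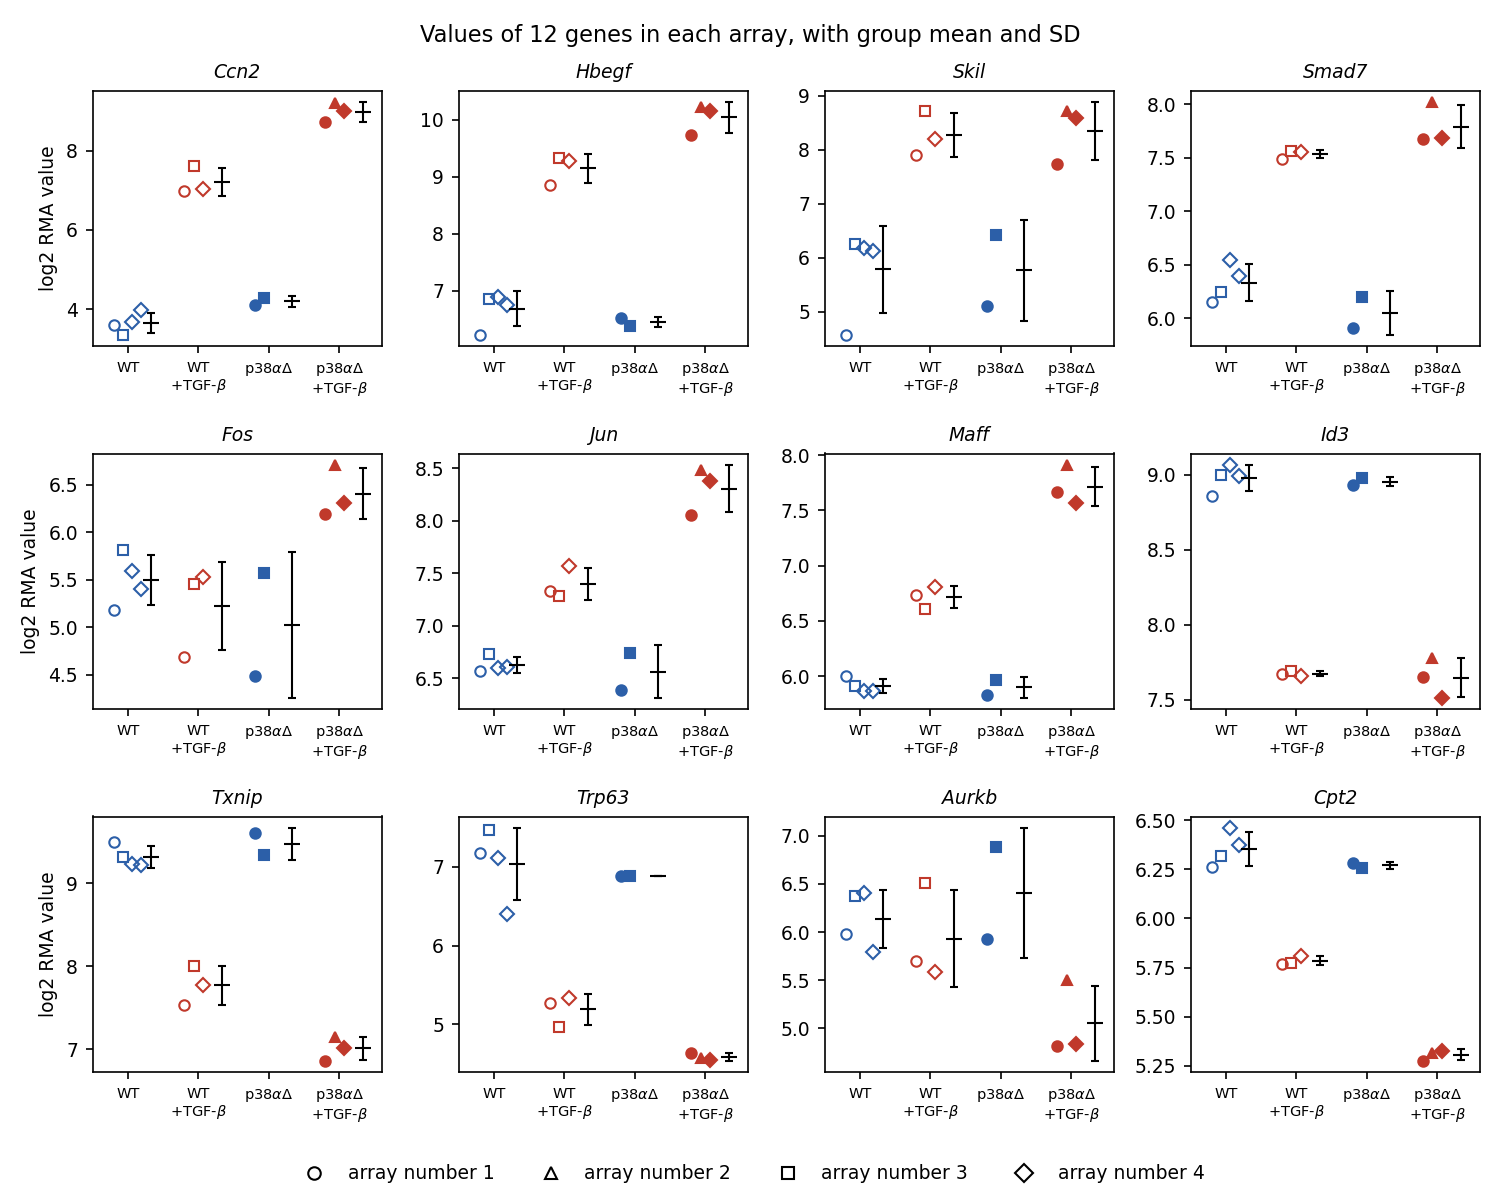
Log2 values of 12 genes, 1 point for each array (marker shape by title number, 4b as 4), open for WT and filled for p38α∆ MSCs, blue without and red with TGF-β, with the mean and SD of each group in black beside the points. In p38α∆ MSCs the treated and untreated arrays do not overlap in any of the 12. That is largely built in, since all 12 genes passed in the contrast of these arrays. Over all genes the treated arrays all lay above the untreated ones in 9.22% and all below in 11.4%. Fos and Aurkb separate in p38α∆ MSCs but overlap in WT MSCs. This does not show a difference between the genotypes, since no gene passed for it and the groups hold unlike numbers of arrays.

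Of 33 collagens, 5 rose (15.2%, against 3.40% of all genes): Col7a1 (1.02), which anchors basement membranes, Col27a1 (0.96), Col5a3 (0.78), Col8a2 (0.51) and Col5a1 (0.32). None fell, and Col1a1 was at 12.30 and 11.93 untreated and at 12.20, 12.08 and 12.10 treated (0.01, adjusted p = 0.979 in limma). Col27a1 overlapped between the groups, and 1 of the 2 other probesets of Col5a1 gave 0.14 and did not pass. The count of collagens was 0 without the array number in the model, 1 without untreated array 1 or 3, 2 without treated array 2 or 4, and 3 without WT array 3, WT array 4b or any treated WT array, and without WT array 1 there were 2 falls as well. Plod2, which hydroxylates collagen lysines for crosslinks, went from 7.46 and 7.85 to 8.72, 9.43 and 9.31 (1.46, adjusted p = 0.000105), and the lysyl oxidase Loxl2 (0.79) and the transglutaminase Tgm2 (0.62) rose among 22 genes of collagen processing, of which 1 rose without untreated array 1, untreated array 3 or treated array 4.

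Of 43 other matrix genes 7 rose and 1 fell. Has2, which makes hyaluronan, went from 4.19 and 3.75 to 5.03, 6.01 and 6.16 (1.75, SE 0.32, adjusted p = 0.00476 in limma), and its second probeset gave 1.37. Tgfbi (1.48), an integrin ligand named for its induction by TGF-β, Thbs2 (1.09, with a second probeset at 0.49 that did not pass), Fbln2 (1.04) and Tnc (0.66) rose, as did the less abundant Mfap4 (0.52) and Has1 (0.46), while Mgp, an inhibitor of calcification, fell by 0.59. Fn1 (-0.06) and Postn (0.02) did not pass. The 7 rises were 4 without untreated array 1 and 3 without untreated array 3, and the 1 fall was lost without untreated array 1. Without treated array 4 there were 2 falls.

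In the CCN family Ccn2 (4.73), Ccn4 (2.30) and Ccn1 (1.32) rose, Ccn5, which lacks the C-terminal domain of the others, went from 7.10 and 7.13 to 5.49, 5.94 and 5.56 (-1.45, SE 0.19, adjusted p = 0.000713 in limma), and Ccn3 and Ccn6 did not pass. Proteases split as well, with 4 of 39 metalloproteases and inhibitors up and 4 down. Adam12 went from 4.98 and 4.95 to 6.39, 7.63 and 7.69 (2.11, SE 0.28, adjusted p = 0.000653), and Timp3 (1.15), Adamts4 (0.99) and Timp1 (0.72) rose. Adamts9 (-1.90), Adamts5 (-1.77), Mmp13 (-1.74), the collagenase of cartilage and bone, and Mmp16 (-1.29) fell.

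On the cell surface, Plaur, the urokinase receptor, went from 7.24 and 7.08 to 8.73, 9.01 and 8.91 (1.72, SE 0.13, adjusted p = 8.63e-06 in limma), and Plau, urokinase itself, rose by 1.04. F3 (tissue factor), which starts blood clotting, fell by 1.80, from 6.48 and 7.91 to 4.49, 6.28 and 5.94, with each array numbered 1 the lowest of its group. This fall did not pass without the array number in the model or without untreated array 3, and without treated array 1 the list of 14 genes of this system had 3 rises and 2 falls. Among 15 integrins Itga3, a laminin receptor chain, fell by 1.25 and none rose.

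Of 44 genes of contraction and the actin cytoskeleton 6 rose, from Csrp2 (0.96) and Rhob (0.94) to Pdlim7 (0.89), Zyx (0.62), Palld (0.59) and Fhl2 (0.53). Acta2, the smooth muscle actin of myofibroblasts, was at 3.67 and 4.48 untreated and at 4.26, 4.78 and 4.67 treated (0.45, adjusted p = 0.194 in limma), so its groups overlapped. Cnn1 (0.01) and Myl9 (0.16) did not pass. The count of 6 fell to 2 without the array number in the model and to 3 without untreated array 3, treated array 2, treated array 4 or WT array 3. Of 19 targets and regulators of YAP and TEAD 3 rose (Gadd45b, Ajuba at 0.66 and Frmd6 at 0.54) and 2 fell (Tead2 at -0.48 and Amotl2 at -0.44), with 1 fall or none left in each fit without 1 array except those without WT array 1, WT array 4b or treated array 1.

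Among 14 FGF ligands and receptors, Fgf18 went from 4.45 and 4.35 to 6.20, 6.39 and 6.19 (1.94, SE 0.16, adjusted p = 2.69e-05 in limma) and Fgf21, a metabolic hormone, rose by 1.31, while the receptor Fgfr2 fell by 1.11. Of 12 genes of the EGF family, Ereg (epiregulin) rose by 1.81 and Nrg1 by 0.91 beside Hbegf. Of 14 PDGF, VEGF and angiopoietin ligands 2 rose and 1 fell. Vegfa, the main growth factor of endothelial cells, went from 8.31 and 8.23 to 9.11, 9.41 and 9.64 (1.14, adjusted p = 0.00266). Pdgfc went from 8.27 and 8.85 to 9.71, 10.08 and 9.88 (1.28, adjusted p = 0.0011). Angpt1, which steadies vessels, went from 5.60 and 6.20 to 4.46, 4.38 and 4.62 (-1.22, adjusted p = 0.00236). None of 9 genes of the IGF pathway passed, and the lowest value was that of Igf1 (-1.10, SE 0.46, adjusted p = 0.208).

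Of 22 cytokines and inflammatory mediators 4 rose: Lif, a cytokine of the IL-6 family, went from 4.18 and 3.70 to 5.70, 6.34 and 6.11 (2.00, SE 0.18, adjusted p = 5.18e-05 in limma), with Ptgs2 (2.33), Socs3 (1.06), which blocks the receptors of that family, and Csf1 (0.65). Il11 (0.69, adjusted p = 0.0572) lay just outside the threshold, and Il6, at 2.62 to 2.98 in all 5 arrays, did not pass. Among chemokine genes the scavenger receptor Ackr3 (1.70) and Cx3cl1 (0.93) rose and Cxcl12 (-0.80), which holds blood cell precursors in the marrow, and Ackr4 (-0.58) fell, with neither fall left without untreated array 1, 1 left without untreated array 3, WT array 3 or treated array 1 or 2, and 1 rise left without untreated array 3. Of 29 interferon response and antigen presentation genes 5 fell and none rose, at -0.62 to -0.46 (Ifit2, Irf1, Ddx58, Tapbp and Gbp2), and second probesets of Tapbp and Gbp2 did not pass. This interferon count was 1 without the array number in the model or without untreated array 1, untreated array 3 or treated array 1, 3 without treated array 4 and 9 without WT array 4b. Of 17 complement genes C5ar1 (0.84), a receptor for a complement fragment, rose and Masp1 (-0.39), a protease of the lectin pathway, fell, and neither passed without untreated array 1, untreated array 3 or treated array 1.

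Among 24 factors and cadherins of mesenchymal transition 5 rose and 3 fell. Runx1, a factor of mesenchymal and blood cell fate, went from 5.05 and 5.55 to 6.51, 7.25 and 7.37 (1.72, SE 0.23, adjusted p = 0.000728 in limma), and Foxs1 (1.01), Sox9 (0.99), the cartilage factor, Snai1 (0.98) and Scx (0.74), the tendon factor, rose. Snai2 (-1.25), Prrx1 (-1.16) and Sox4 (-0.78) fell, with Prrx1 overlapping between the groups, and Zeb1 (-0.35) and Zeb2 (-0.70) did not pass. Another Sox4 probeset gave -0.77, while those at -0.43, -0.41 and -0.63 did not pass. The 3 falls were 0 without the array number in the model, without treated array 1 or without untreated array 3, and 1 without untreated array 1, WT array 3 or WT array 4. Hey1, a Notch target, fell by 1.31, while Notch2 (0.61), Hes1 (0.49) and Lfng (0.64) rose, with 1 rise left without untreated array 1 and 0 without untreated array 3.

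In the adipogenic list 2 of 20 genes fell and none rose. Zfp467, a zinc finger factor that favors fat over bone, went from 5.83 and 6.20 to 4.20, 4.62 and 4.46 (-1.75, SE 0.15, adjusted p = 2.69e-05 in limma), and Lipe, a lipase of fat cells, fell by 0.59, whereas Pparg (-0.12) did not pass, and 1 of these 2 falls was left without untreated array 1 or treated array 1. Bglap (osteocalcin) fell by 0.88 and Dlx6, a factor of bone formation, by 0.36, and Ank (0.73), Pth1r (0.58) and Ihh (0.56) rose. Rspo2 (-1.38) and Rspo3 (-0.78), R-spondins that strengthen Wnt signals, and the receptor Fzd1 (-0.40) fell, while Ror2 (0.47) and Wnt2b (0.38) rose. These Wnt genes and the 5 bone genes depended on single arrays: without untreated array 1 or treated array 1, no Wnt gene rose and 1 fell, and 1 bone gene rose and none fell, and without untreated array 3 no Wnt gene rose and no bone gene fell. Without the array number in the model 1 Wnt gene rose and none fell, and 1 bone gene rose and 1 fell. Among 33 axon guidance genes, which also act in vessels and bone, 7 fell and 4 rose, led by Sema3a (-1.28) and Sema7a (1.15), with 3 falls left without untreated array 1, untreated array 3 or treated array 1. In the clock list Bhlhe40, a repressor that many stimuli induce, went from 7.22 and 7.05 to 9.22, 9.13 and 9.11 (1.97, SE 0.10, adjusted p = 1.32e-06), and Cry1 (0.78) and Ciart (0.40) rose while Per3 (-0.88) and Tef (-0.48) fell, with 1 rise left without untreated array 1 or 3 and 1 fall left without untreated array 3 or treated array 4, and 1 rise and no fall without the array number in the model.

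Of 18 inhibitors and D cyclins 5 fell and none rose: Cdkn1a (p21) went from 8.51 and 8.38 to 7.31, 7.60 and 7.62 (-1.02, SE 0.15, adjusted p = 0.00146 in limma), and Cdkn1b (p27, -0.91), Cdkn2b (p15, -0.71), the pocket protein Rbl2 (-1.19) and Ccng2 (-0.98), a cyclin of resting cells, fell with it, Ccng2 with an overlap between the groups. Of 31 genes of G1/S and DNA replication 5 fell as well, Tk1 (-1.17), Mcm5 (-0.86), Mcm10 (-0.67), Pole (-0.55) and Lig1 (-0.48), with a list median of -0.36. Of 31 mitotic genes Aurkb, from 5.93 and 6.88 to 4.82, 5.50 and 4.84 (-1.25, SE 0.25, adjusted p = 0.00815), and Cdc25b (-0.99) fell, with a median of -0.30 and 4 of 31 above 0. Mki67 (-0.59) and Cdk1 (-0.35) did not pass. The 5 replication genes were 1 without the array number in the model or without untreated array 1 or 3, 0 without treated array 1 and 3 without treated array 4, and the 2 mitotic genes were 1 without the array number or untreated array 3.

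Of 24 genes of glycolysis and the hypoxia response 7 rose and none fell, with 23 of 24 above 0. Pfkfb3, whose product speeds up glycolysis, went from 5.03 and 5.12 to 7.08, 6.78 and 6.69 (1.84, SE 0.14, adjusted p = 1.46e-05 in limma), and Hk2 (1.32), hexokinase, Slc2a1 (1.03), the glucose transporter, and Slc16a3 (0.82), which exports lactate, rose, as did Pfkp (0.67), Adm (0.65) and Pfkl (0.60). The rise of Pfkl rests on a dim probeset, and its 2 brighter probesets gave 0.06 each (adjusted p of 0.831 and 0.895). The count was 4 without the array number in the model or treated array 2, and 3 without untreated array 3.

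Of 28 genes of mitochondrial fatty acid and branched-chain oxidation 5 fell and none rose. Cpt2, which brings fatty acids into mitochondrial oxidation, went from 6.28 and 6.26 to 5.28, 5.31 and 5.33 (-0.99, SE 0.08, adjusted p = 1.53e-05 in limma), and Acadm (-1.42), Acaa2 (-0.66), Cpt1a (-0.53) and Echs1 (-0.53) fell. Of 24 genes of sterol and fatty acid synthesis 6 fell (Elovl6, Mvk, Scd1, Fdps, Fads2 and Dhcr7, at -1.19 to -0.57) and none rose. Of 29 genes of serine metabolism and the amino acid response 5 fell, led by Ddit3 (CHOP, -1.08) and Trib3 (-1.03), stress factors of that response. The counts in these 3 lists were 2, 1 and 3 without the array number in the model and 3, 2 and 2 without untreated array 1, and without treated array 1 oxidation and sterol synthesis had 3 each, as oxidation had without untreated array 3. Xbp1 (0.91), Hspa5 (BiP, 0.55) and Manf (0.54), of the unfolded protein response, rose, and only 1 of these 3 without untreated array 3 or treated array 1. In the antioxidant list Txnip (-2.47), Aldh3a1 (-2.08) and Nfe2l2 (NRF2, -0.44) fell and Txnrd1 (0.53) rose, the last not without untreated array 1.

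**Figure D4:**
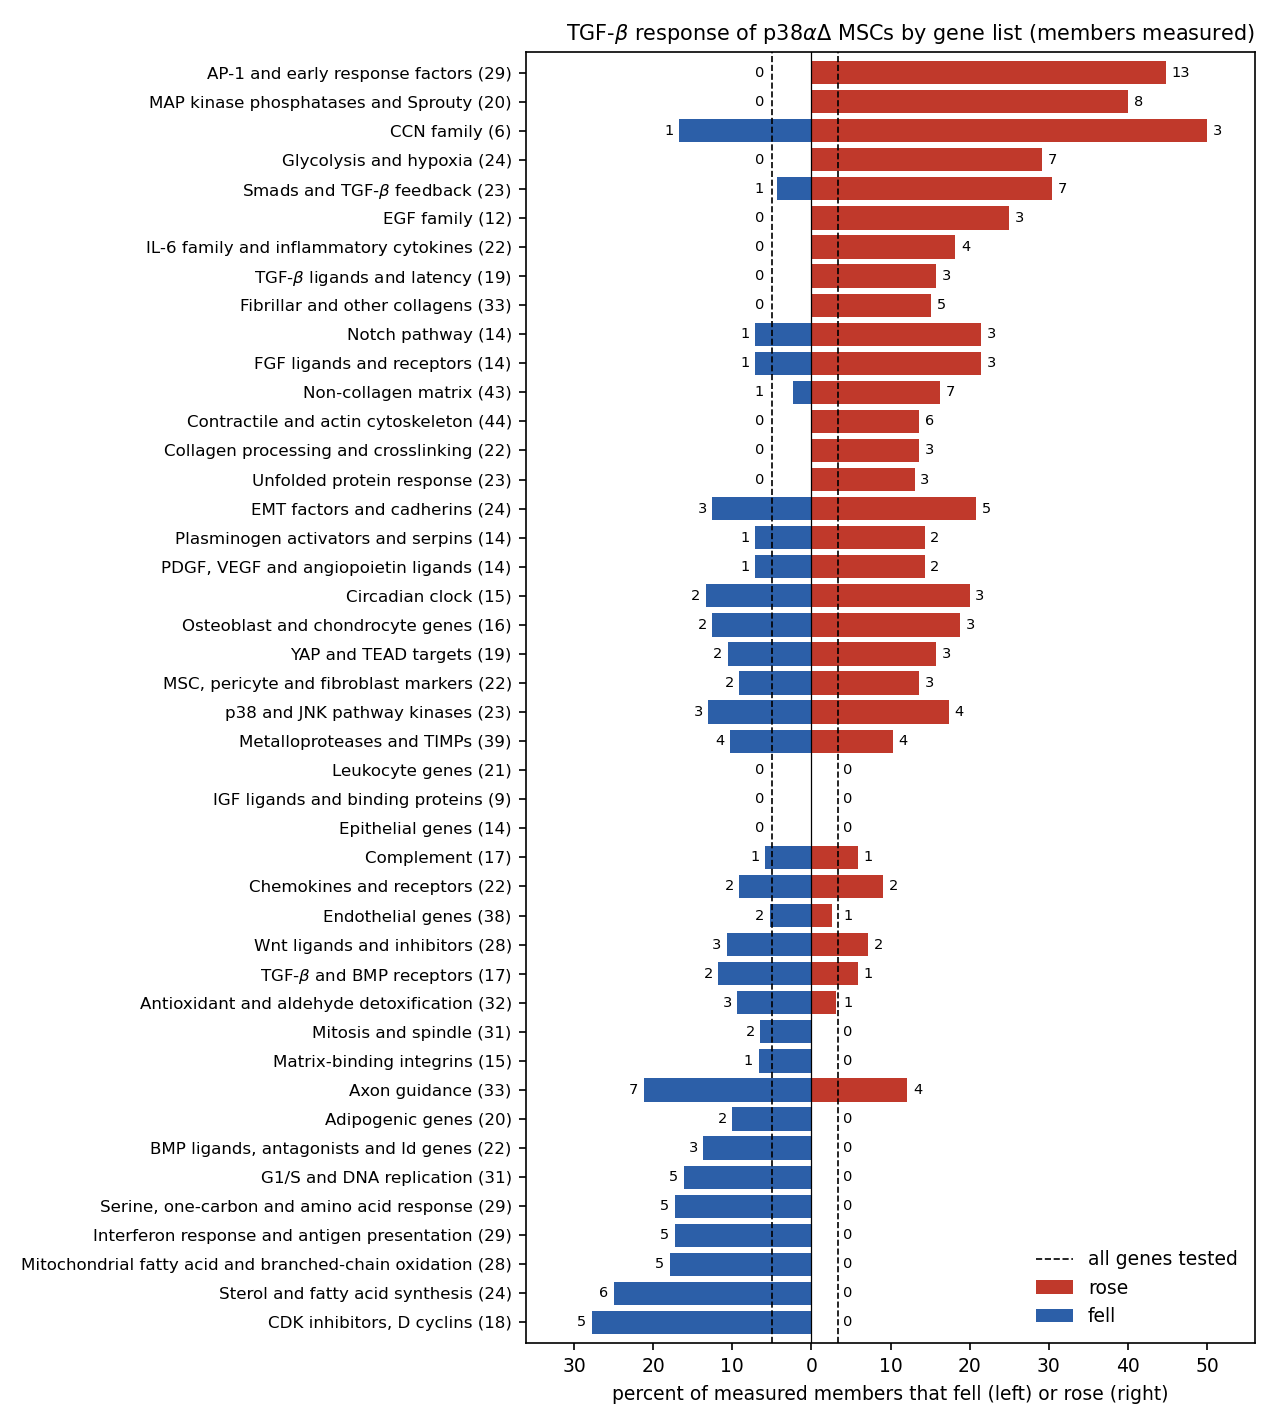
Percent of the measured members of each of 44 gene lists (number measured in brackets) that rose (right, red) or fell (left, blue) with TGF-β in p38α∆ MSCs at an adjusted p under 0.05, with the number of genes at each bar and dashed lines at 3.40% and 4.92%, the shares over all genes tested. The CCN family, with 3 of 6 genes, reaches 50% on the right and early response factors 44.8%. Cell cycle inhibitors and sterol synthesis reach 25.0 to 27.8% on the left.

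Over the 44 lists 1008 of 1124 genes were measured, and 118 rose and 84 fell. Several lists lay near the shares over all genes, 3.40% and 4.92%, among them complement (5.88% each way) and mitosis (6.45% fell). The lists were written from general knowledge of TGF-β and of these cells, with earlier results of the data known, so a share above that of all genes is a description of the list. Summed over lists, the 202 genes that passed were 118 without the array number in the model, 123 without untreated array 1 and 125 without untreated array 3.

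In RNA of a whole culture, fewer cells of a type and less RNA per cell cannot be told apart. None of 21 leukocyte and 14 epithelial genes passed (1 leukocyte gene fell without untreated array 3 and 1 rose without treated array 4), with list means per array of 3.58 to 3.75 untreated and 3.65 to 3.89 treated for the former and 3.82 to 4.13 and 3.86 to 4.25 for the latter. Ptprc (CD45) was at 2.74 to 2.97 and Epcam at 3.68 to 4.29 over the 5 arrays. The endothelial list had array means of 4.40 to 4.56 untreated and 4.42 to 4.61 treated. In its 38 genes there were 1 rise (Pdpn, 0.58) and 2 falls (S1pr1, -0.88, and Calcrl, -0.70, whose second probeset did not pass). These shares, 2.63% and 5.26%, were near the 3.40% and 4.92% of all genes. There was 1 fall without untreated array 3 or treated array 4, no rise without untreated array 3, and 2 rises without treated WT array 1. Its defining markers Pecam1 (CD31) and Cdh5 (VE-cadherin) were at 3.50 to 4.01 and 3.81 to 4.09. The deposited values carry no detection call, so a low value is not a call of absence.

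The MSC label was checked against its markers. Pdgfrb was at 8.58 to 9.53 and Itgb1 (CD29) at 8.90 to 9.42 in the 5 arrays, Nt5e (CD73) at 6.06 to 6.72, and Thy1 (CD90) at 3.14 to 3.55, low in every array. The whole marker list had means per array of 5.51 to 5.688 untreated and 5.665 to 5.744 treated. Those of all genes were only slightly lower, 5.333 to 5.352 and 5.287 to 5.347. Of 22 markers of MSCs, pericytes and fibroblasts 3 rose and 2 fell. Nes (nestin), an intermediate filament of perivascular stem cells, went from 5.36 and 4.55 to 6.80, 6.40 and 7.20 (1.90, SE 0.31, adjusted p = 0.00271 in limma), Mcam (CD146) from 4.32 and 4.41 to 5.26, 5.46 and 5.62 (1.04), and Cd44, the hyaluronan receptor, from 7.98 and 7.61 to 8.70, 8.71 and 8.66 (0.88). Pdgfra fell by 0.78 and S100a4 by 1.10, and the 2 falls were 0 without untreated array 1 and 1 without treated array 1, treated array 4 or untreated array 3.

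The response of WT MSCs to TGF-β was fitted beside it, on 4 untreated and 3 treated arrays. There 771 genes rose (4.51%) and 910 fell (5.32%), and 1030 to 1118 passed without WT array 3 or any 1 of the 3 treated WT arrays. Of the genes that rose in p38α∆ MSCs 441 also rose in WT MSCs, which is 75.9% of the former and 57.2% of the latter, and of those that fell 528 also fell, which is 62.7% and 58% respectively. Only 1 gene passed in opposite directions. This was Mcm10, a DNA replication factor, at 5.80 and 6.26 untreated against 5.05, 5.88 and 5.41 treated in p38α∆ MSCs (-0.67) and at a mean of 5.92 untreated against 6.34 treated in WT MSCs (0.44). Its other 2 probesets did not pass in p38α∆ MSCs (-0.59 and -0.38). A further 140 rises and 313 falls passed in p38α∆ MSCs alone, which does not show that they differ.

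The difference between the 2 responses was therefore tested for each gene. No gene passed in limma (0.00%, smallest adjusted p = 0.218), and 919 genes (5.38%) had an unadjusted p under 0.05, of which 427 had a higher (2.50%) and 492 a lower (2.88%) response in p38α∆ MSCs. p38α∆ MSCs alone had been given 4-OHT, so deletion and 4-OHT cannot be told apart in this comparison.

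The 10 genes with the smallest p of the difference, a description since none passed, included Maff, Fos and Jun. Maff rose by 1.78 in p38α∆ MSCs and, from a mean of 5.91 untreated to 6.72 treated, by 0.80 in WT MSCs, a difference of 0.97 (SE 0.14, unadjusted p = 1.28e-05, adjusted p = 0.218 in limma). Fos was at 5.18 to 5.81 untreated and 4.69 to 5.53 treated in the WT arrays, a response of -0.26 against 1.39 in p38α∆ MSCs, and the difference was 1.66 (SE 0.28, adjusted p = 0.456). Jun rose by 0.78 in WT MSCs, from 6.57 to 6.74 untreated to 7.28 to 7.57 treated, and the difference was 0.91 (SE 0.16, adjusted p = 0.456). Over the list of 29 early response factors, 11 had an unadjusted p under 0.05, all of them higher in p38α∆ MSCs, with Egr1 (1.12), Junb (0.96), Fosb (0.80) and Jund (0.48) among them.

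The other 7 genes with the smallest p were Pvr (0.85), a surface ligand that receptors of natural killer cells recognize, Mcam (0.97), the signaling adaptor Shb (0.75), and, lower in p38α∆ MSCs, Mcm10 (-1.11), Ssh2 (-1.07), a phosphatase of cofilin, Ppp1r3c (-0.60), which targets a phosphatase to glycogen, and 5930403N24Rik (-0.60), a transcript without an assigned function. Their adjusted p were 0.456 to 0.548. In the lists of replication and mitosis 7 and 8 of 31 genes each had a lower response in p38α∆ MSCs at an unadjusted p under 0.05 and none a higher one, with median responses of -0.36 and -0.30 in p38α∆ MSCs and 0.14 and 0.04 in WT MSCs. Sterol synthesis was similar, with 6 of 24 lower and none higher. Over all genes 2.88% were lower and 2.50% higher at that p, and no gene of these lists passed after adjustment. Dusp8, a phosphatase of JNK and p38, shows how the choice of probeset matters: its most variable probeset responded by 0.28 in p38α∆ and 0.09 in WT MSCs, whereas another gave 1.64 and 0.24, a difference of 1.40 that passed when all 45101 probesets were tested (adjusted p = 0.0451). With that setting 2 probesets without a gene name passed too.

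**Figure D5:**
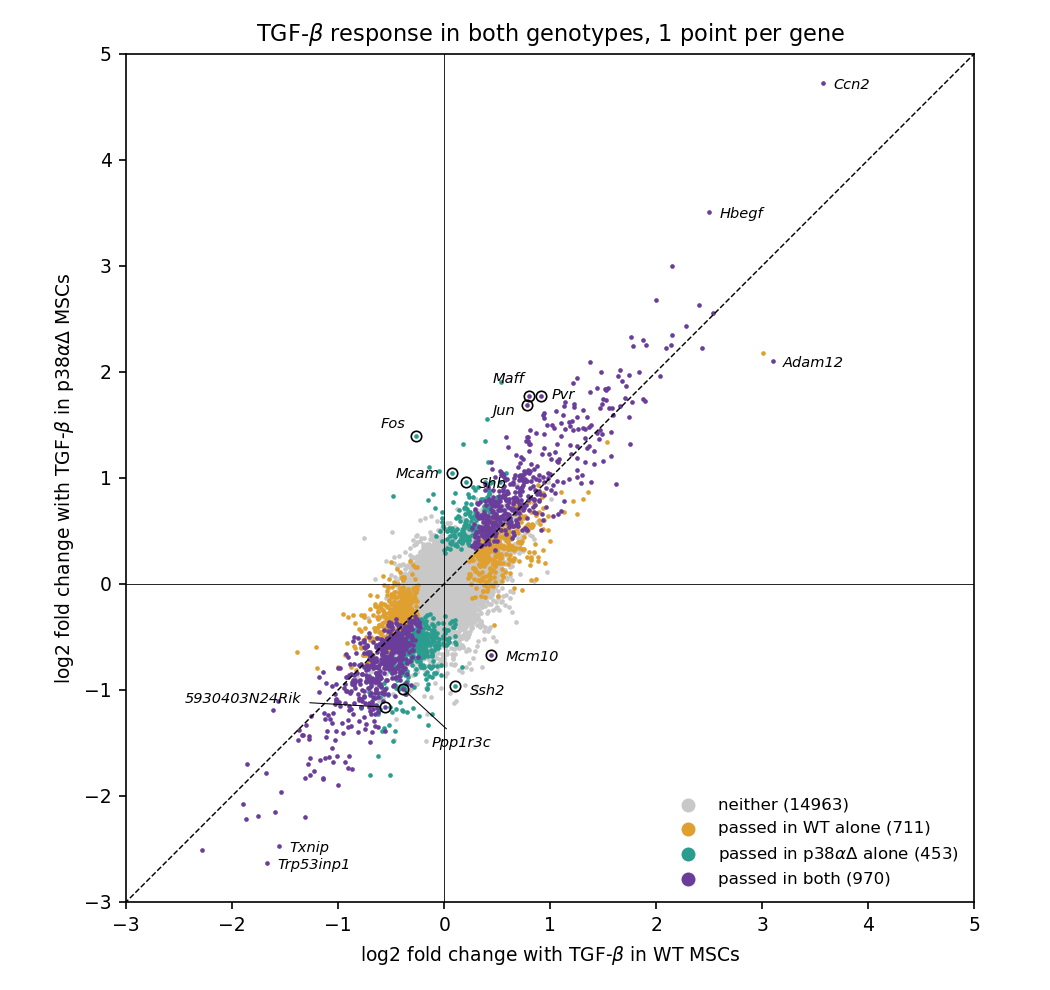
Log2 fold change with TGF-β in p38α∆ MSCs (vertical axis) against that in WT MSCs (horizontal axis) for 17097 genes, colored by the genotypes in which the gene passed, with the 10 genes of smallest p for the difference circled and a dashed line of equal response. The 970 genes that passed in both include Mcm10, which lies in the lower right quadrant, and no gene passed for the difference itself.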

How the data were processed

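RNA of MSC cultures (25 ng a sample, amplified with a whole transcriptome amplification kit) was hybridized to Affymetrix MG-430 PM arrays. The authors deposited log2 expression values, background-corrected, quantile-normalized and summarized per probeset by RMA, and no scanner files were used here. Arrays give no read depth, and their number limits the precision. Of 45101 probesets, 28898 were listed with 1 gene symbol, 551 with several and 15652 with none. For each of 17097 genes, the probeset that varied most over the 12 arrays (by median absolute deviation) was used. Further probesets are mentioned for some genes only. Others that passed, such as Dlx6, Jund, Csf1, Hspb8, Zyx and Pdlim7, also have a probeset that did not pass.

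All 12 arrays were fitted with limma 3.58.1 in R 4.3.3 (lmFit and eBayes), with the number in each array's title (4b counted as 4) as a random block through duplicateCorrelation, and p-values were adjusted by the Benjamini-Hochberg method over all genes at 0.05. The study's methods name the scanning batch as a covariate, which the labels do not give. The numbers were kept as the block for that reason. Between same-numbered arrays of different groups, deviations from the group means correlated at 0.07 to 0.86 over 14 pairs. Among arrays numbered 4 the values were 0.07 to 0.36. Arrays with different numbers gave -0.85 to 0.78. The ranges overlap, so these values do not show a separate effect of each number. The estimated correlation within a number was 0.52. Because of the block, fitted changes differ from differences of group means. In the fit of the 5 p38α∆ arrays without the block, Lpin1 gave -1.53 against -1.80 with it, and Cd200 gave 2.43 against 2.23. The largest rises and falls were ranked by the fitted change.

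Named genes were the 15 largest rises and 15 largest falls that passed, did not overlap between the groups and had a group mean of at least 6, and the 10 genes with the smallest p of the difference. Other genes are members of 44 lists. The arrays compared, the lists and the rules were chosen with earlier results of these data known. The scripts were tested on simulated data. Promoter windows came from RefSeq (GRCm38.p6), matched by symbol for 13605 of the tested genes, and the 5′-most window was used. Alternatives were another normalization, probeset choice, variance model or block, and leaving out each array.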

Additional observations from a re-analysis of the deposited data

Results flagged for a closer look

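In 5 of the genes named for their response, 1 of the 4 untreated WT arrays lay far from the other 3. Chance sets an array apart in this way in about 1 in 20 groups, but genes that share a shift of the same array are not separate cases. Untreated WT array 1 was at 4.58 for Skil (others 6.13 to 6.25), at 6.28 for Ccn4 (others 7.31 to 7.43), at 6.30 for Eya1 (others 6.84 to 6.87) and at 6.56 for Gulp1 (others 7.52 to 7.69). Untreated WT array 3 was at 5.68 for Fgf2 (others 5.48 to 5.50). The arrays numbered 1 also stood apart on the largest component of the variation between arrays (51.2%). In Skil, Ccn4, Eya1 and Gulp1 untreated p38α∆ array 1 was below untreated p38α∆ array 3 as well, as in Skil (5.10 against 6.43). The cause of this shift was not tested. The 2 untreated p38α∆ arrays were too few for this check.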

How the results depend on the processing

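The 2 untreated p38α∆ arrays limit every value of the response, and only number 1 is shared by the treated and untreated p38α∆ arrays. Without the replicate block 625 genes passed in p38α∆ MSCs, 593 in WT MSCs and 118 in the lists, against 202 in the lists with it. In the 5 p38α∆ arrays alone, 55 genes and 20 list genes passed. Leaving out 1 array gave 736 to 1610 genes in p38α∆ MSCs, 1030 to 1903 in WT MSCs, 123 to 216 in the lists and 0 for the difference. With all probesets tested 2348, 2703 and, for the difference, 3 passed. A change of at least 1 left 315 and 178 genes, and array weights, whose estimate stopped before it converged, gave 6247 in WT MSCs. Among genes that fell by at least 1, the AP-1 motif was in 8.06% and the TEAD motif in 7.26% of windows. The array number as a fixed term gave 1398 genes in p38α∆ MSCs, of which 1139 were shared, and leaving out the 4 arrays numbered 1 gave 1333, of which 893 were shared. Dtna reversed with the probeset of highest mean, to 0.0199. Apart from these limits the cause of each shift was not tested.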
